A study of Mus musculus with 8 samples.

Results

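The hypoxic hepatoma cells were 5176 of the 34499 hepatoma cells, and of 53528 cells in all, in one table of tumours grown from the mouse hepatoma line Hepa1-6. A cell was taken as a hepatoma cell where the mean deposited value of Krt8, Afp and Alb was at least 1 and the mean of the immune genes Cd3g, Trbc2, Tyrobp and Fcer1g was below 0.5. Within each set of cells, the 15% of hepatoma cells with the highest mean of Ndrg1, Bnip3, Slc2a1 and Ero1l were the members, and the remaining 29323 hepatoma cells served for comparison. The label hypoxic rests on these transcripts. Oxygen itself was not measured in the files used here.

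The study made droplet-based 3′ single-cell RNA libraries from tumours of 4 groups: WT tumours given PBS, WT tumours given PD1 antibody, Soat1-edited tumours given PBS and Soat1-edited tumours given PD1 antibody. Both agents were injected intraperitoneally. The edited line is called Soat1KO in the sample titles and Soat1 knockdown in the genotype field, and the number of clones, mice or pooled tumours, the host strain and the age are not given in the sources used here. SOAT1 is the enzyme that esterifies cholesterol for storage. The number that ends each cell name divides the table into 6 sets, and no label ties a set to a group, so neither genotype nor treatment could be compared. The sets are given one by one, and whether they are separate samples is not known, so a direction shared by 6 sets is a description and not agreement over replicates. No p-value is given, because cells of one set are not replicates.

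When oxygen is short, the prolyl hydroxylases that mark the alpha subunits of hypoxia-inducible factors (HIF) for destruction lose activity. HIF then accumulates, pairs with its beta subunit and binds short ACGTG or GCGTG cores near genes for glucose uptake, glycolysis, pH control, blood vessel growth and its own feedback. In solid tumours, and in liver tumours among them, such cells are known to lie far from perfused vessels. Ndrg1 is a stress-responsive growth regulator, Bnip3 a mitochondrial protein of mitophagy, Slc2a1 the glucose transporter GLUT1 and Ero1l the endoplasmic reticulum oxidase that serves disulfide formation.

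The sets held 1093, 753, 1245, 566, 863 and 656 members, in the order of their numbers, and the hepatoma cells made up between 48.4% and 77.7% of the cells of a set. The members were chosen by the measured values of these 4 genes, so those values are no finding. The score, their mean, had a median between 2.06 and 2.22 in members and between 0.684 and 0.850 in the other hepatoma cells. The classes met at the threshold. In set 1 the lowest member scored 1.90232 and the highest non-member 1.9011, and in set 6 these values were 1.74637 and 1.74455. A cut by rank puts neighbouring scores side by side, so these values cannot show whether the members form a separate type. By the rule, the members are the upper end of the score.

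Set 1 kept values from which UMI totals, the numbers of distinct captured transcripts per cell, could be recovered, so levels there are given as CPM, UMIs scaled to a common total, summed over the cells of a class. Members of set 1 had a median of 14087 UMIs per cell (range 1006 to 172516) and 347 detected table genes, against 15454 UMIs (1001 to 261833) and 402 genes in the 6192 other hepatoma cells. The 2000 table genes held 15.05% of the UMIs of members and 14.995% of those of the others. A ratio is the CPM of members over that of other hepatoma cells, with a 95% exact interval that covers counting error only. A gene is called higher at a ratio of at least 1.5 and lower at a ratio of at most 1/1.5. PCR and cell-to-cell variation add to the counting error.

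The 3 genes of the hepatoma rule stayed at similar levels in both classes, which the rule itself partly fixes. Krt8, a keratin of liver epithelium, had 1321 CPM in members and 1123 in other hepatoma cells of set 1, and its mean value was higher in members in all 6 sets. Afp, the fetal albumin-like protein made by hepatomas, had 4709 CPM against 4973, and Alb, albumin, had 3231 against 3539. Neither Afp nor Alb differed in 1 direction over the sets, with members higher in 2 and 3 of 6 sets.

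The 4 genes that chose the members are given as a description. Ndrg1 had 2357 CPM in members and 287 in the others, Bnip3 1702 and 304, Slc2a1 456 and 77.3, and Ero1l 460 and 87.4. UMIs of all 4 genes were found in 93.3% of members and in 42.7% of the other hepatoma cells. In the 517 immune cells of set 1, which had a median of only 2673 UMIs, the 4 genes had between 66.2 and 119.7 CPM.

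To see each gene where the rule had not used it, members were rechosen by the other 3 genes, which kept between 88.2% and 91.4% of the members. Ndrg1 was then 6.91 times as high in members of set 1 (95% interval 6.822 to 7.005), Slc2a1 5.11 times (4.97 to 5.26), Bnip3 5.04 times (4.97 to 5.11) and Ero1l 4.26 times (4.14 to 4.37). Each left-out gene had a higher mean in members in 6 of 6 sets. The 4 transcripts thus went together from cell to cell. Part of any such link between genes can come from what cells share, such as depth, and that part was not tested.

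Promoters of 5 genes of the hypoxia response are shown because they differ in how many HIF cores they carry. They are the rule genes Bnip3 and Slc2a1 and the higher genes Ankrd37, Car9 and Vegfa. Each sequence is the 250 bases before the first listed start, 5′ to 3′ on the strand of the gene, from RefSeq (GRCm38.p6), and capitals mark ACGTG or GCGTG on either strand.
Bnip3: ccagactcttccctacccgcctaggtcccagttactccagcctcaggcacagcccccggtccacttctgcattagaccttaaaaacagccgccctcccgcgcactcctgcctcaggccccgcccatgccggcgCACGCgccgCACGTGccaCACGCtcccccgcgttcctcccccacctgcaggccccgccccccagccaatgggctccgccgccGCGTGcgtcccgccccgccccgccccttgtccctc
Slc2a1: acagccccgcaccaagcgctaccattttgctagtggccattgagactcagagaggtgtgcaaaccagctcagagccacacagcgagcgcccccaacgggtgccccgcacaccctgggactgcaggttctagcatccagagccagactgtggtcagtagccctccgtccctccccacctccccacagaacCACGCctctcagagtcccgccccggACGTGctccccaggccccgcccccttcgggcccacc
Ankrd37: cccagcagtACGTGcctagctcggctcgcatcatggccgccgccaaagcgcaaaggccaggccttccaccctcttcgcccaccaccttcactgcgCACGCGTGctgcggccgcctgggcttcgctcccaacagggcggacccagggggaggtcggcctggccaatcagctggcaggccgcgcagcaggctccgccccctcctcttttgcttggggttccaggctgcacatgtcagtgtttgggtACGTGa
Car9: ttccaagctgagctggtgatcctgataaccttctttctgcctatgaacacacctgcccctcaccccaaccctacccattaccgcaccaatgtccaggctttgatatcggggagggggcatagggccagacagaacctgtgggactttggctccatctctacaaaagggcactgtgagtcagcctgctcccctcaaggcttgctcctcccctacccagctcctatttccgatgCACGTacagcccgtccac
Vegfa: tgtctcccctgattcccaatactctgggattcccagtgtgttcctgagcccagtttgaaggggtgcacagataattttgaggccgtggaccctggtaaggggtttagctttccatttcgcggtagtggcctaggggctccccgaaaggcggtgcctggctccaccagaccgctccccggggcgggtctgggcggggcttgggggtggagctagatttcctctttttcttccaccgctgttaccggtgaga
The Bnip3 window is chr7:138909507-138909756 (minus strand) and holds 5 matches, of which the palindrome gives 1 on each strand. The Slc2a1 window is chr4:119108495-119108744 (plus strand) with 2 matches, and the Ankrd37 window is chr8:45999851-46000100 (minus strand) with 4. The Car9 window, chr4:43506776-43507025 (plus strand), has 1 match, 14 bases before the start. The Vegfa window, chr17:46032378-46032627 (minus strand), has 0 matches, which says only that these letters are not in this window.

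Of the 1720 table genes with at least 50 UMIs in hepatoma cells of set 1, the 11 rule genes left out, 213 were higher in members (12.4%) and 912 were lower (53%). The median gene had a ratio of 0.623, so a lower call was the common case in this table and a higher call the rare one. Over the sets, 265 genes (15.4%) had a higher mean in members in all 6 and 1024 (59.5%) a lower one. Both criteria together were met by 182 higher genes (10.6%) and by 797 lower genes (46.3%). The counts below are to be read against these shares. Each list covers only those of its genes that are table genes, and many lists are thus far from whole pathways. The table held 7 of 28 genes for HIF feedback, 9 of 38 for glycolysis and glycogen, but 49 of 51 for G2 and M phase.

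A promoter was found for 155 of the 213 higher genes, and 84 of them (54.2%) held an ACGTG or GCGTG core. The share was 36.5% for lower genes, 39.4% for all counted genes with a promoter and 38.6% for the 27025 promoters of the RefSeq table. Promoters of higher genes were also richer in G and C, with a median of 57.6% against 54.4%. Among promoters at or above the median G and C content, 65.3% of those of higher genes and 50.8% of all held a core, and below it 33.3% and 27.5%. A match is a description of letters and not a binding site.

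Feedback genes of the HIF pathway were the list with the highest median. Of 6 counted, 4 were higher and 2 lower in members, with a median log2 ratio of 1.37 against -0.68 for all counted genes. Egln3, a prolyl hydroxylase that marks HIF for destruction and is itself a HIF target, had 716 CPM in members and 310 in the others. Cited2, which competes with HIF for its coactivators, had 1020 and 347 CPM. Ddit4, an inhibitor of mTORC1 signalling, had 947 and 313 CPM, a ratio of 3.02 (2.97 to 3.07). Ankrd37, an ankyrin-repeat protein, had 175 and 60.5 CPM, and 64.1 in immune cells of set 1. All 4 had a higher mean in members in 6 of 6 sets. The 2 lower genes were Bhlhe41, a transcriptional repressor, and Ndufa4l2, a HIF target of the respiratory chain that rested on 10 UMIs in members. Ndufa4l2 changed direction to 1.29 once cells with fibroblast or endothelial transcripts were left out, an alternative chosen after seeing the data.

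Of the 9 counted genes of glycolysis and glycogen, 4 were higher and 4 lower, with a median log2 ratio of -0.44. Pgk1, which makes the first ATP of the pathway, had 1974 CPM in members and 638 in the others, a ratio of 3.09 (3.06 to 3.13). Gapdh, the step before it, had 1559 and 679 CPM, and Aldoa, the aldolase that splits the six-carbon sugar, 945 and 465. The glucose transporter Slc2a3 had a ratio of 3.09 (2.78 to 3.42), yet a UMI was seen in 13.4% of members and 10.9% of the others, and the 109 members with most Slc2a3 UMIs held 93.4% of them. Eno1, enolase, had 90.2 CPM in members and 122.6 in the others, and the muscle form Eno3 had a ratio of 0.365. The lower genes included Pck1 and G6pc, enzymes of glucose release, on 4 and 11 UMIs in members, and both changed direction under 1 alternative each. Pgk1, Gapdh and Aldoa have near-identical processed copies in the genome, and how reads shared with them were counted is not given in the sources used here.

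**Figure D1:**
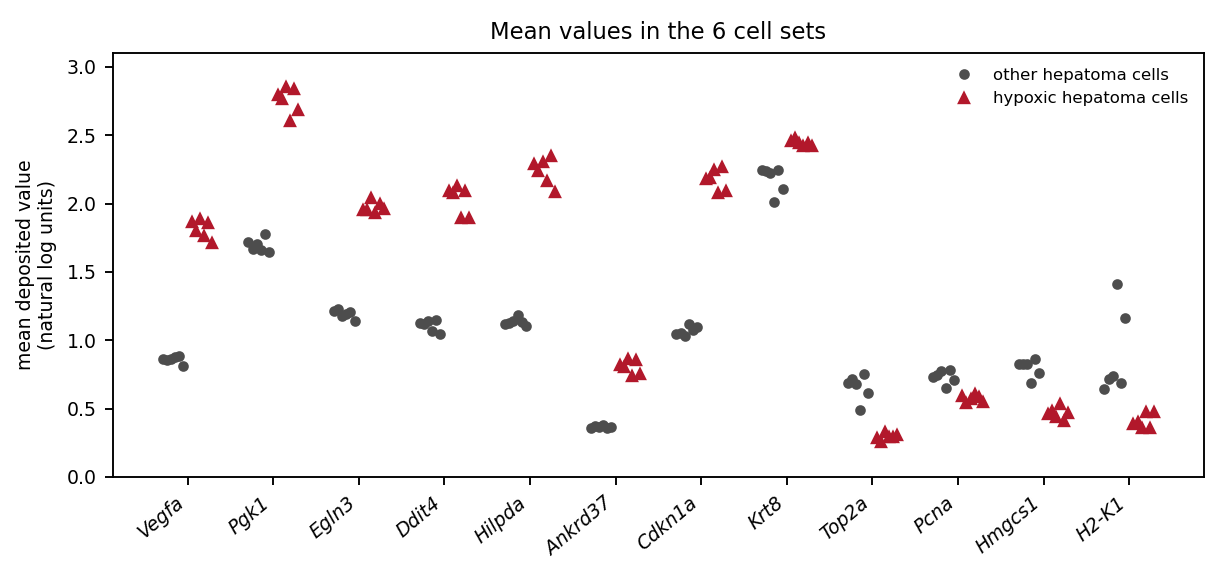
Mean deposited value (natural log units) of 12 genes in each of the 6 cell sets, with 1 circle per set for other hepatoma cells and 1 triangle per set for hypoxic hepatoma cells. For Vegfa the member means lie between 1.71 and 1.89 and those of the others between 0.81 and 0.89, and for Top2a the order is turned.

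Car9, the membrane carbonic anhydrase that acidifies the space around hypoxic cells, had 24.0 CPM in members and 8.54 in the others (ratio 2.81, 2.53 to 3.13), and 24.6% of members had a UMI of it against 13.0%. In immune cells of set 1 the share was 0.774%. It was the only higher gene of the 5 counted for pH and ion balance, of which 2 were lower.

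Signals to blood vessels and matrix differed gene by gene. Vegfa, the main growth factor for blood vessels, had means in members between 1.71 and 1.89 over the sets (median 1.83) and in the others between 0.81 and 0.89 (median 0.87). The ranges did not overlap. In set 1 Vegfa had 666 CPM in members, 189 in other hepatoma cells and 54.5 in immune cells. Igfbp3, which binds insulin-like growth factors, had 2490 and 893 CPM, and Spp1, osteopontin, 297 and 153. The calcium-regulating hormone Stc1 had 96.7 and 52.9 CPM. Pgf, a relative of Vegfa, was higher by a ratio of 2.18 (1.46 to 3.17) on 38 UMIs in members.

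Other well-known HIF targets of the same list were not higher. Adm, the vasodilator adrenomedullin, had a ratio of 0.885 (0.616 to 1.24), Angptl4, an inhibitor of lipoprotein lipase, 0.324 (0.159 to 0.591), and Apln, an endothelial ligand, 0.357 (0.113 to 0.865). These 3 rested on between 5 and 39 UMIs in members. Adm and Apln were sensitive to which cells counted as hepatoma cells: at a hepatoma score of at least 2, Adm had a ratio of 2.41 and Apln one of 1.39. Angptl4 had ratios between 0.105 and 0.583 over the 19 alternatives. In all, 7 of the 25 counted vascular and secreted genes were higher and 10 lower, with a median log2 ratio of -0.36. Among the lower ones were the neutrophil chemokine Cxcl1 (0.354) and endothelin 1, Edn1 (0.309).

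P4ha2, a subunit of the collagen prolyl hydroxylase, had 114 CPM in members and 31.2 in the others (ratio 3.65, 3.47 to 3.84). It was the only higher gene of 20 counted for collagen and matrix, of which 16 were lower. Fibronectin, Fn1, had a ratio of 1.25, and one of 0.964 among hepatoma cells with at most the median level of cell cycle UMIs, an alternative given below. The lowest were fibroblast collagens, with Col1a2 at 0.0834, Col3a1 at 0.0927 and Col1a1 at 0.101. Markers of fibroblasts, which share Col1a1, Col1a2 and Col3a1 with this list, were lower as well. All 7 were detected in members, 6 of 7 were lower, and their summed level was 36.5 CPM in members and 154 in the others. Cells that carried over 1 fibroblast or endothelial marker UMI per 10000 were then left out, an alternative chosen after seeing the data. The list had a median log2 ratio of -0.21 in place of -1.21 and Col1a2 was no longer lower by 1.5, while P4ha2 stayed higher. Col1a1, Col1a2 and Col3a1 are themselves markers of this filter. Their shift, and with it part of that of the list, is thus fixed by construction. Lox, the collagen crosslinker and a HIF target, had a ratio of 0.129 with these cells and 1.22 without them.

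Both lipid droplet genes that were called higher stood far up. Hilpda, a HIF target that blocks triglyceride breakdown in droplets, had 1163 CPM in members and 324 in the others, a ratio of 3.59 (3.53 to 3.64). Lpin2, a phosphatidate phosphatase of triglyceride synthesis, had 179 and 49.0 CPM. Of 11 counted genes of lipid droplets and uptake, 2 were higher and 3 lower, with a median log2 ratio of -0.06.

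Of 13 counted genes of unfolded protein and amino acid stress, 6 were higher, 4 lower and 3 neither, with a median log2 ratio of 0.47. When cells were thinned to 5000 UMIs, 3 of 12 were higher and 4 lower (median 0.18). By the mean over cells 4 of 13 were higher and 4 lower (0.26). Over the sets 5 genes had a higher mean in members in all 6 and 5 a lower one. Ddit3, the transcription factor CHOP of the unfolded protein response, had 334 CPM in members and 59.0 in the others, a ratio of 5.65 (5.47 to 5.84). Its means in members lay between 0.756 and 0.960 over the sets and those in the others between 0.331 and 0.389. Trib3, a CHOP target, had a ratio of 2.43 (2.29 to 2.58), the endoplasmic reticulum chaperone partner Dnajb9 2.46 (2.35 to 2.57) and the stress gene Nupr1 1.55. Nupr1 lost its call when thinned and by the mean over cells (1.37). Slc7a11, also called higher, lost its call when thinned (1.43), by the mean over cells (1.40) and in other alternatives. Chac1, which degrades glutathione, had a ratio of 3.26 on 41 UMIs in members and was higher in 5 of 6 sets. Asns, asparagine synthetase, and Phgdh, the first enzyme of serine synthesis, were lower at 0.453 and 0.617. The heat shock genes Hspa1a and Hspa1b had ratios of 0.464 and 0.461, but 0.924 and 0.882 at a hepatoma score of at least 2 and 0.735 and 0.674 in cells of at least 10000 UMIs, where neither was called lower. As near-identical copies they cannot be told apart with certainty in 3′ reads.

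Of 16 counted immediate early and oxidative stress genes, 8 were higher, 2 lower and 6 neither (median log2 ratio 0.56). Cdkn1a, the inhibitor p21 of cyclin-dependent kinases, had 1006 CPM in members and 272 in the others, a ratio of 3.70 (3.64 to 3.76). Its means in members lay between 2.08 and 2.27 over the sets, above the range of 1.03 to 1.12 in the others. Gadd45a and Gadd45b, stress sensors of growth arrest, had ratios of 2.53 and 2.10. Hmox1, heme oxygenase, had 267 and 82.5 CPM, and the metallothioneins Mt1 and Mt2, which bind zinc and copper, had ratios of 2.57 and 2.18. Nqo1, a quinone reductase and classic NRF2 target, was lower at 0.422.

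**Figure D2:**
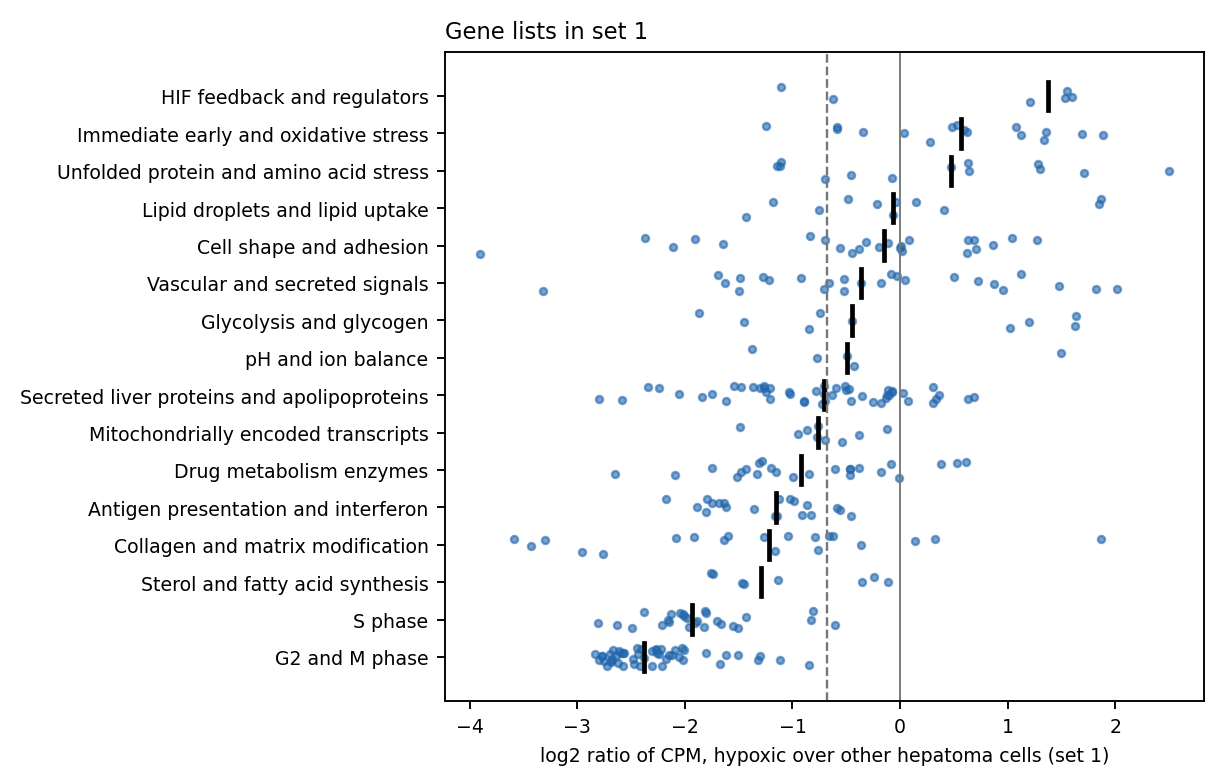
Log2 ratio of CPM in set 1, hypoxic over other hepatoma cells, for each counted gene of 16 lists (points), with the list median (black bar), the median of all counted genes (dashed line, -0.68) and no difference (solid line). Feedback genes of HIF have the highest median, 1.37, and all genes of both cell cycle lists lie to the left of no difference.

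Transcripts of dividing cells were lower throughout. All 26 S phase genes and all 49 genes of G2 and M phase were lower by 1.5 or more, and all had a lower mean in members in all 6 sets, where 53% and 59.5% of counted genes did. The median log2 ratio was -1.93 for S phase and -2.38 for G2 and M phase. Top2a, the topoisomerase of chromosome condensation, had 49.95 CPM in members and 247 in the others. Its means lay between 0.254 and 0.330 in members and between 0.493 and 0.751 in the others. Mki67, the proliferation antigen, had a ratio of 0.147 (0.133 to 0.162), and Ccnb1, the mitotic cyclin, 0.152 (0.132 to 0.174). Among the smallest differences were those of Ccne2, a cyclin of S phase entry (0.657), Pcna, the replication clamp (0.570), and Cks2, a partner of cyclin-dependent kinases (0.555). When cells were thinned to 5000 UMIs, 24 of the 26 S phase genes were called lower, and by the mean over cells 23. Ccne2 lost its call in both (0.883 and 0.877) and Pcna by the mean over cells (0.681). All 49 genes of G2 and M phase kept theirs in both.

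Cells were then compared at a depth of 5000 UMIs each, which left out 78 members and 1022 others. At that depth 85.5% of members (83.2 to 87.6) and 92.8% of the others (92.05 to 93.48) had a UMI of the S phase list, and before thinning the shares were 97.2% and 95.3%. At least 3 S phase UMIs were found in 36.6% and 62.8%. The median member had 5 UMIs of the G2 and M list and the median other cell 10, and the 90th percentile was 10 UMIs in members and 55 in the others. Only 0.394% of members lay above the 90th percentile of the others for G2 and M phase, and 7.49% above their median. For the HIF feedback list the order was turned, with a median of 13 UMIs in members and 4 in the others, and 94.98% of members above the median of the others.

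**Figure D3:**
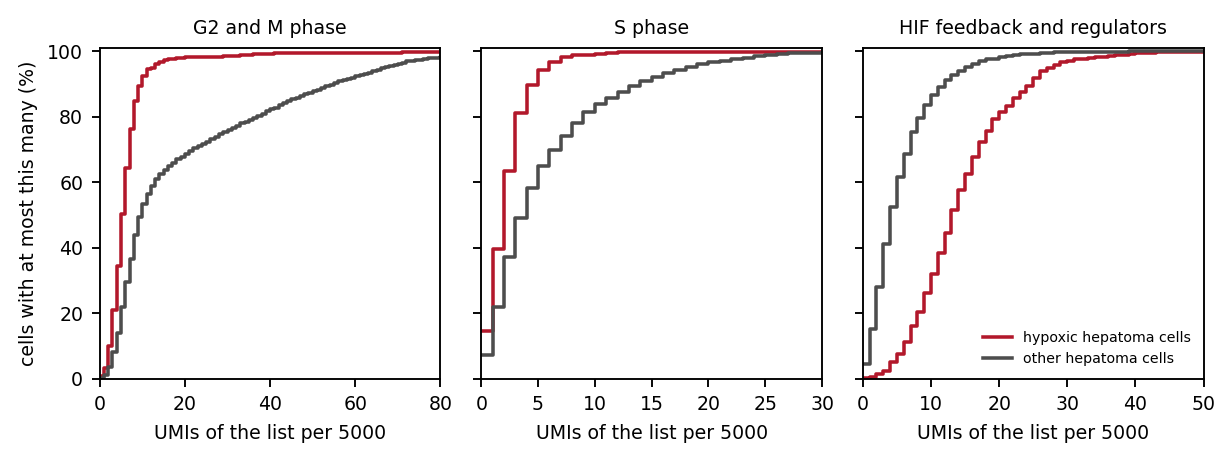
Share of cells of set 1 (%) with at most the given number of UMIs of a list, after each cell was thinned to 5000 UMIs, for 1015 hypoxic and 5170 other hepatoma cells. The others have a long upper tail for G2 and M phase and for S phase that members lack, and members lie to the right for HIF feedback genes.

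As the other hepatoma cells hold the dividing ones, the comparison was repeated in hepatoma cells with at most the median level of cell cycle UMIs, an alternative chosen after seeing the data that left 931 members and 2712 others. There the medians of the cycle lists were near 0 by construction (-0.09 for G2 and M phase and -0.32 for S phase). Vegfa still had a ratio of 2.49, Cdkn1a 2.70 and Ddit3 4.43, and Hmgcs1 one of 0.429. The HIF feedback list had a median log2 ratio of 0.93 and the antigen presentation list one of -1.14. The stress list had a median of 0.10, and 4 of 24 counted vascular and secreted genes were higher. Of the 96 called genes that were followed, 18 lost their call there. Besides cycle genes these included Stc1, Spp1, Nupr1, F2, Gc, Krt7, Sox4 and Ugt2b34, all called higher over all hepatoma cells, and Phgdh, called lower.

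Sterol synthesis genes were lower or near even. Hmgcs1, which makes the HMG-CoA of the mevalonate pathway, had 81.2 CPM in members and 222 in the others, a ratio of 0.366 (0.349 to 0.385). Idi1 and Fdps, later steps towards the sterol precursor, had ratios of 0.299 and 0.455. Sqle, squalene epoxidase, at 0.783, and Scd1, a fatty acid desaturase, at 0.923, did not pass. In all 5 of 8 were lower and 0 higher, with a median log2 ratio of -1.29.

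The mitochondrially encoded transcripts among the table genes, 9 of the 13 on the list, summed to 13180 CPM in members and 17673 in the others. Of 9 counted 6 were lower, where 53% of all counted genes were. The list had a median log2 ratio of -0.77, close to the -0.68 of all counted genes. The lowest were mt-Nd3 (0.356) and mt-Cytb (0.517), both parts of the respiratory chain, while mt-Co1, of cytochrome oxidase, was close to even at 0.917 (0.912 to 0.922).

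Genes of antigen presentation and interferon response were lower, 18 of 20 counted, and 0 were higher (median log2 ratio -1.15). H2-K1, a class I heavy chain, had 58.3 CPM in members and 110 in the others. Its means lay between 0.357 and 0.477 in members over the sets and between 0.640 and 1.41 in the others, where sets 4 and 6 stood highest. Cd274, the PD-1 ligand PD-L1, had a ratio of 0.563 (0.493 to 0.641), the interferon-induced GTPase Gbp4 0.222 and the chemokine Cxcl10 0.270. H2-K1 had a ratio of 0.5302 (0.4999 to 0.5620), which was 0.813 in cells of at least 10000 UMIs and 0.771 at a hepatoma score of at least 2, both no longer called lower. The list also holds the class II genes H2-Aa (0.322) and Cd74 (0.390), which antigen-presenting immune cells express. Macrophage and monocyte markers moved the same way. All 8 were detected in members, 6 were lower, and their summed level was 39.4 CPM in members, 124 in the others and 1544 in immune cells. T cell markers had 22.1 CPM in members and 25.1 in the others against 2573 in immune cells. NK cell markers went the other way, with 17.2 CPM in members and 12.1 in the others. Of these 6 markers 1 was called higher and 3 were not counted. Both hepatoma and immune cells were chosen by immune genes, so the contrast with immune cells is partly set by the rules. The part of other cells' RNA in the lower interferon genes was not tested.

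Secreted liver proteins were mixed over all hepatoma cells. Of 49 counted 28 were lower and 2 higher, with a median log2 ratio of -0.71, close to that of all counted genes. These counts depended on the choice of cells. With the top 25% as members 13 were higher and 12 lower, and with the rule without Slc2a1 11 were higher and 11 lower. In cells with at most the median level of cell cycle UMIs 0 were higher and 38 of 48 lower. The list median there was -1.19, where all counted genes had a median of -0.57 and 49.5% were lower. Fabp1, the liver fatty acid binding protein, had a ratio of 0.197 (0.175 to 0.220), the high-density lipoprotein gene Apoa2 0.211 and the thyroxine carrier Ttr 0.326. The sizes for Fabp1 and Apoa2 depended on the choice of members. They were 0.542 and 0.632 with the top 25%, and 0.578 and 0.491 with the rule without Slc2a1. Apoe, which had 1953 CPM in members and 3233 in the others, was lower in all 6 sets. F2, prothrombin, and Gc, the vitamin D carrier, had ratios of 1.61 and 1.55. Neither F2 nor Gc kept its call when cells were thinned to 5000 UMIs (1.49 and 1.30), by the mean over cells (1.47 and 1.46) or in cells with few cell cycle UMIs (1.09 and 1.02), and Gc also lost it with the rule without Ndrg1. Ahsg, fetuin, had 1.29 with a higher mean in members in 6 of 6 sets, but 0.846 in cells with at most the median level of cell cycle UMIs. Apoa1 had a ratio of 0.540, but its mean was higher in members in 3 of 6 sets. Drug metabolism enzymes had 14 lower and 1 higher of 24, the higher one being the glucuronosyltransferase Ugt2b34 (1.53), and Cyp3a11, the main hepatic cytochrome of the list, was at 0.159 on 10 UMIs in members.

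The list of cell shape and adhesion held 7 higher, 7 lower and 10 other genes of 24, with a median log2 ratio of -0.15. Among the higher ones, Krt19, a bile duct keratin, had 373 CPM in members and 155 in the others, and Sox9, a transcription factor of bile duct and progenitor cells, 392 and 191. Krt7 and Sox4 had ratios of 1.61 and 1.63. Each of the 4 had a higher mean in members in 6 of 6 sets. In cells with at most the median level of cell cycle UMIs Krt7 had a ratio of 1.49 and Sox4 one of 1.42, both no longer called higher, where Krt19 had 1.85 and Sox9 1.74. The secreted trefoil peptide Tff3 was among the lower genes (0.319).

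Beyond the lists, the 15 highest genes with 1 direction in all 6 sets were led by Derl3, which takes part in the disposal of misfolded proteins of the endoplasmic reticulum. Derl3 had 19.0 CPM in members and 0.878 in the others, a ratio of 21.7 (17.6 to 26.8), on 402 UMIs from 9.52% of members. Edn2, endothelin 2, followed at 11.7 (7.34 to 18.8) on 55 UMIs. With a pseudocount of 1 CPM Derl3 had a ratio of 10.7 and Edn2 one of 2.94, and Edn2 had 5.09 when cells were thinned to 5000 UMIs, while Derl3 had 12.7 with the rule without Slc2a1. Next came Smtnl2 at 7.62 and the ubiquitin ligase Rnf186 at 6.69, which had a UMI in 73.9% of members and 33.5% of the others. Angptl8, a regulator of lipoprotein lipase, had 150 and 27.5 CPM, and 79.1% of its UMIs in members came from 109 cells. Mxd1, which opposes MYC at its binding partner MAX, had a ratio of 4.86, the acyltransferase Mboat2 4.56 and the ubiquitin ligase Rnf217 4.32. The peptide Uts2, Ddit3, Alpi, Tmem179, Trim15, S100a14 and Ly6m completed the 15, with ratios between 4.29 and 5.90.

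The 15 lowest were rare transcripts, with at most 3 UMIs in members. Gpx7 had 0 UMIs in members and 125 in the others, which puts the ratio at no more than 0.190 by its interval. Tmem100 had 1 UMI against 232, a ratio of 0.0274 (0.000691 to 0.154), and Cthrc1, a secreted matrix protein of fibroblasts, 3 against 359. These values moved many-fold with the processing: with a pseudocount of 1 CPM the ratios of Gpx7, Tmem100 and Cthrc1 were 0.518, 0.384 and 0.311. Cthrc1 was at 0.573 with cells of fibroblast or endothelial markers left out. The summed fibroblast markers, given above, were lower in members as well, and their part in these values was not tested.

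Levels were graded along the score in set 1. Vegfa had 730 CPM in the top 5% of hepatoma cells, 678 and 592 in the next 2 steps of 5%, 441 in the cells ranked from 15 to 25%, 249 from 25 to 50%, 130 from 50 to 75% and 110 in the cells ranked from 75 to 100%. For Vegfa no step stood at the limit between members and others. Egln3 was flat across the upper steps, with 735, 731, 682 and 672 CPM down to rank 25%, and reached 173 in the cells ranked from 75 to 100%. Ddit3 had 496, 286, 224 and 119 CPM down to rank 25%. Derl3 had 32.9 CPM in the top 5%, 11.3 and 13.2 in the next 2 steps of members and 2.78 just outside, from 15 to 25%. G2 and M phase transcripts had 1128, 1167 and 1439 CPM in the 3 steps of members and 1519 just outside, then 3051, 5523 and 6302. The cells just below the threshold thus resembled members in their cell cycle transcripts. Fabp1 and Apoa2 did not follow this order. Fabp1 had between 11.3 and 19.8 CPM in members and 78.6 just outside. Apoa2 had between 11.3 and 14.4 CPM in members and 72.5 just outside.

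**Figure D4:**
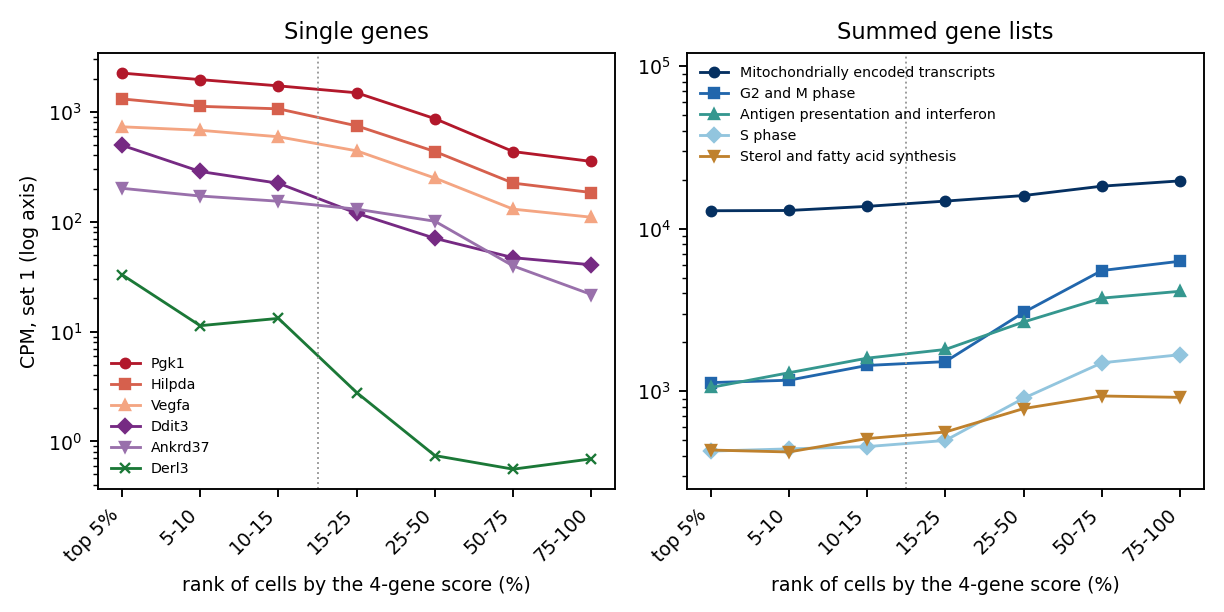
CPM in set 1 (log axis) of 6 genes (left) and 5 summed lists (right) in hepatoma cells ranked by the 4-gene score, from the top 5% to the lowest. The dotted line is the limit of membership at 15%. Vegfa runs from 730 to 110 CPM and the G2 and M list from 1128 to 6302.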

How the data were processed

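Droplet-based 3′ single-cell RNA was measured in tumours of 4 groups, listed as 8 entries, a cDNA and an oligo library for each group, which count as 1 sample. Per the submitters' processing notes, reads were aligned with STAR 2.7.2b, and these notes name both GRCh38 and mm10; 1900 of the 2000 gene symbols matched mouse genes of GRCm38.p6. How the 2000 genes were chosen, and whether strand was used in counting, is not given in the sources used here.

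The authors deposited 1 table of 2000 genes by 53528 cells as natural log values. All 53528 columns are in no known sample. In set 1 the values are the natural log of 1 plus UMIs per 10000: cell totals were recovered for 100% of its 9370 cells, and 100% of values came out whole within 0.01. The other 5 sets hold values below 0 in every cell and were changed further, so only their mean deposited values are given, compared within a set.

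Members were chosen by the rule, UMIs were summed by class (Python 3.11.15, numpy 2.4.6, scipy 1.17.1, pandas 2.3.3), and ratios have exact conditional Poisson intervals and shares exact Clopper-Pearson intervals, both at 95% and for counting error only. Cells are not replicates, so no test across samples was run. Scrublet in scanpy 1.11.5 marked 91 cells of set 1 (0.971%) as doublets, 5 of them members; they were kept. Cell names are serial numbers and not nucleotide barcodes: 12741 of 22421 recur between sets, so shared barcodes could not be counted. The scripts were tested on simulated data.

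Genes of 16 fixed lists could be named, and besides them the 15 highest and 15 lowest genes with at least 50 UMIs and 1 direction in all 6 sets. Creb3l3 falls outside this rule and was taken from the highest genes of the Ddit3 split, which was chosen after seeing the data. The members and lists were chosen with earlier results of these data known. In all 19 alternatives were tried for the set 1 ratios. Some results are not reported here.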

Additional observations from a re-analysis of the deposited data

How the results depend on the processing

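In all 19 alternatives the number of genes called higher (171 to 263 against 213) and lower (671 to 1086 against 912) stayed within 1.5 times the main count, and so did the counts of genes with 1 direction over the sets. The median log2 ratio of all counted genes moved between -0.98 (mean over cells) and -0.41 (hepatoma score of at least 2), against -0.68. Of 107 genes followed, 96 were called, and between 78 (hepatoma cells with few cell cycle UMIs) and 96 kept their call. The share of cells with an S phase UMI was 58.6% in members and 74.7% in the others when thinned to 2000 UMIs, and 97.2% and 95.3% unthinned; for G2 and M phase these were 89.9% and 96.2%, and 99.7% and 99.3%. Depth limits these shares: unthinned, the S phase order is turned. With the top 10% as members the left-out ratios of Ndrg1 and Bnip3 were 6.40 and 4.75, and with the top 25% those of Ndrg1, Bnip3 and Ero1l were 7.85, 5.92 and 4.59. The median log2 ratio of secreted liver proteins turned to 0.065 with the top 25% and 0.041 with the rule without Slc2a1, and Apoa1 turned to 1.05 and 1.03. Apln turned to 1.39 (hepatoma score of at least 2), Pck1 to 1.27 (thinned to 5000 UMIs) and G6pc to 1.12 (rule without Slc2a1); the cause was not tested. In 2 alternatives chosen after seeing the data, Ndufa4l2 and Lox turned to 1.29 and 1.22 with fibroblast or endothelial marker cells left out, and Cks2, Pcna and Ccne2 to 1.00, 1.16 and 1.37 in cells with at most the median level of cell cycle UMIs, which removes dividing cells by construction. In the same cells with few cell cycle UMIs Ahsg and Fn1, called neither higher nor lower over all hepatoma cells, turned to 0.846 and 0.964. No paired analysis was possible because no set could be tied to a labelled sample.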

Other observations

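Members differed among themselves in Ddit3. The 109 members of set 1 with the most Ddit3 were set beside the other 984, a split chosen after seeing the data, and Ddit3 itself is not a result of it. The median UMI total was 17762 in the first and 13896 in the second. Of 1063 genes counted in this split, 61 were higher (5.74%) and 284 lower (26.7%) in the Ddit3-high members. Only 14 were higher and had a higher mean in all 6 sets. Derl3, of misfolded protein disposal, had 100.03 CPM in the Ddit3-high members and 9.42 in the rest, a ratio of 10.6 (8.69 to 13.0). Creld2, a chaperone-like protein of the endoplasmic reticulum, had a ratio of 5.62 (5.24 to 6.03), Dnajb9 2.63 (2.41 to 2.87) and the liver transcription factor Creb3l3 2.33 (1.75 to 3.07). Each of these 4 had a higher mean in the Ddit3-high members in 6 of 6 sets, and they were picked from those 14 genes. Over all members against other hepatoma cells Creld2 had a ratio of 1.38 in set 1 but a lower mean in members in all 6 sets, and 68.2% of its UMIs in members came from 109 cells. Hypoxia genes differed in their values: Vegfa had a ratio of 0.999 (0.946 to 1.05) between the Ddit3-high and the remaining members, and Gapdh 1.37 (1.33 to 1.42), higher in 6 of 6 sets. Among the genes that chose the members, whose spread the rule limits, Slc2a1 had 1.45 (1.37 to 1.53), Ndrg1 1.32 (1.28 to 1.35), Ero1l 1.30 (1.22 to 1.38) and Bnip3 1.00 (0.968 to 1.04). Slc7a11, the cystine transporter, had a ratio of 0.674 (0.538 to 0.836) and Afp one of 0.671 (0.655 to 0.687). Both had a lower mean in the Ddit3-high members in 6 of 6 sets, but neither passed the limit of 1/1.5.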
